A study of Mus musculus with 20 samples.

Results

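The colon of mice with dextran sulphate sodium (DSS) colitis under daily cyclosporine A was set against the colon of untreated healthy mice. These 2 groups were taken from the array titles and hold 8 of the 20 arrays of the study, 4 in each group. All 20 mice were female C57BL/6JOlaHsd of about 11 weeks, and total RNA of the middle part of each colon was measured on 1 Affymetrix array. The values are on the log2 RMA scale. The mice of the cyclosporine colitis group drank 3% DSS for 5 consecutive days and received cyclosporine A at 25 mg/kg by mouth on days 1 to 15, suspended in 2% methocel. The untreated colitis group drank the same DSS and received saline. The untreated healthy group received saline and no DSS. The remaining 8 arrays, of 4 colitis and 4 healthy mice given a probiotic mixture by gastric tube, entered only the filter on dim probe sets, the shared estimate of spread and the principal components. No healthy mice received cyclosporine, so in the comparison with untreated healthy mice the effects of DSS, of the drug and of its methocel vehicle cannot be told apart. The direct comparison with untreated colitis, which holds DSS in common, stands beside it, and the 2 comparisons share the 4 cyclosporine arrays. In that direct comparison the drug and its methocel vehicle cannot be told apart, since untreated colitis mice received saline.

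DSS injures the colonic epithelium, and bacterial contact through the damaged barrier then draws neutrophils, monocytes and lymphocytes into the mucosa. Cyclosporine A binds cyclophilins, and the complex inhibits the phosphatase calcineurin, so that NFAT factors are not activated and T cells make less interleukin 2 and other cytokines. Interferons act through other routes: type I interferons act on antiviral genes through the interferon-stimulated response element (ISRE) of their promoters, and interferon gamma induces MHC class II and guanylate-binding proteins.

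Array medians lay between 6.22 and 6.29, and pairs of arrays correlated at 0.965 to 0.994, both over all probe sets with values. On the first principal component of all 20 arrays, which took 55.9% of the variance, the cyclosporine colitis mice lay at -12.85 to -2.07, the untreated colitis mice at 2.14 to 32.38 and the untreated healthy mice at -28.55 to -22.66. Untreated healthy mouse 2 stood apart on the third component, at 22.46, untreated colitis mouse 6 on the second, at 28.24, and cyclosporine mouse 9 on the third, at -21.37. Colon markers were present in every group: the log2 of the summed level of 23 tested surface colonocyte genes was 15.56 to 15.64 in cyclosporine colitis, 15.07 to 15.30 in untreated colitis and 15.76 to 15.87 in untreated healthy mice. Of 10 pancreatic acinar genes on the array 4 were dim. The 6 tested had mean levels of 6.79 to 6.91 in cyclosporine colitis, 6.48 to 6.91 in untreated colitis and 7.04 to 7.34 in untreated healthy mice. The 14 tested small intestinal and gastric genes had mean levels of 6.18 to 6.30 in cyclosporine colitis, 6.22 to 6.42 in untreated colitis and 6.27 to 6.31 in untreated healthy mice. Fat varied within the cyclosporine group: Adipoq, which encodes adiponectin, was at 5.41 in mouse 9, against 6.78 to 6.90 in the other 3.

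Relative to untreated healthy colon, 442 of 16739 genes rose in cyclosporine colitis (2.64%) and 566 fell (3.38%) at an adjusted p under 0.05. Most changes were small: 39 genes rose at least 2-fold (0.233%) and 4 fell at least 2-fold (0.0239%), and the median change of all genes was -0.031 on the log2 scale. At an unadjusted p under 0.05 there were 4017 genes (24%). The counts depended on single arrays. Of the 442 rises 109 held when each of the 8 arrays was left out in turn (24.7%), and of the 566 falls 149 did (26.3%). The lowest counts, 172 rises and 199 falls, came without untreated healthy mouse 2. Values below are given in the order of cyclosporine colitis mice 4, 7, 9 and 10, untreated colitis mice 5, 6, 7 and 10, and untreated healthy mice 2, 4, 6 and 7. A change is a log2 difference with its standard error, and an interval is the 95% confidence interval. Counts of list members stand beside these shares of all genes: 2.64% rose and 3.38% fell against untreated healthy. Against untreated colitis 7.58% were higher and 5.58% lower in cyclosporine colitis.

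Genes induced by type I interferon held the most rises of any list, 9, while those induced by interferon gamma had a larger median change and fewer calls. Of 23 tested type I members 9 rose and none fell in cyclosporine colitis, with a median change of 0.44, and for 12 every cyclosporine mouse lay above every healthy mouse, against 6.55% of all genes. In bulk tissue more cells of a type and more RNA per cell cannot be told apart, and macrophage and T cell genes, described below, also lay above the healthy level. Oas2, an antiviral synthetase that makes the activator of RNase L, had values of 8.53, 7.82, 8.80 and 8.14 in cyclosporine colitis, against 6.47, 6.64, 6.88 and 6.80 in untreated healthy mice. Every cyclosporine mouse lay above every healthy mouse, and the rise was 1.63 ± 0.28 (SE, n = 4 each, limma adjusted p = 0.00439), a 3.1-fold difference. Oasl2, a related protein of the same family, had 10.05, 9.19, 9.86 and 8.93 in cyclosporine colitis and 8.08, 8.28, 8.01 and 7.57 in untreated healthy mice, and rose by 1.52 ± 0.31 (adjusted p = 0.0106). Ddx60, a helicase induced by interferon that was named for its size of change and stands outside the list, had 9.33, 8.31, 9.37 and 7.73 in cyclosporine colitis and 6.62, 7.18, 7.07 and 7.09 in untreated healthy mice (1.70 ± 0.31, adjusted p = 0.00619). Mice 4 and 9 were the highest cyclosporine mice for all 3 genes. The spread within the cyclosporine group was wide for Ddx60 (SD 0.80, n = 4), against 0.25 in untreated healthy mice. Ddx58, the RNA sensor RIG-I, rose by less and more evenly, with 8.04, 7.81, 7.99 and 7.95 in cyclosporine colitis and 7.41, 7.48, 7.41 and 7.24 in untreated healthy mice (0.56 ± 0.12, adjusted p = 0.0125). Oas3 rose by 0.84 ± 0.19 (adjusted p = 0.0164), which did not pass without cyclosporine mouse 4 or untreated healthy mouse 7 (adjusted p 0.0576 to 0.0584). The list's count dropped to between 3 and 5 without untreated healthy mouse 2, 6 or 7 or cyclosporine mouse 4 or 9, and was 7 without each of the other arrays.

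Against untreated colitis, no member of the type I interferon list passed limma's test in either direction, where 7.58% of all genes were higher and 5.58% lower in cyclosporine colitis; at an unadjusted p under 0.05 1 member was higher and 4 were lower. Without untreated colitis mouse 6, 3 members were lower, and without cyclosporine mouse 9, 1 was. Oas2 was at 7.90, 7.52, 8.53 and 8.99 in untreated colitis, and the cyclosporine group differed from it by 0.09 (interval -0.49 to 0.67, adjusted p = 0.878). Oasl2 differed by 0.15 (interval -0.51 to 0.80) and Ddx60 by 0.38 (interval -0.27 to 1.03). Both groups held high and low mice for these genes, and the intervals are wide. The list median was -0.18 for cyclosporine colitis minus untreated colitis and 0.73 for untreated colitis minus untreated healthy.

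Promoters of interferon-induced genes that were measured here were searched for the ISRE core, GAAANNGAAA, on both strands with overlapping matches counted, in RefSeq windows of 250 bases before to 50 bases after the gene start (GRCm38.p6). Of 23 tested type I interferon members 17 had a window in the table and 10 of these held the core (58.8%), against 1079 of 27025 genes in the whole table (3.99%). Among the 9 members that rose, 7 had a window and 4 held the core (57.1%). The windows of 5 genes that rose and hold the core are shown, with Oasl2 as a gene that rose and whose window has no match, and the core is in capitals. Gbp3 has 2 windows, of which the first is shown and the second holds no match. They lie at chr8:61927837-61928136, plus strand for Ddx60, chr5:120777610-120777909, minus strand for Oas3, chr4:40239776-40240075, minus strand for Ddx58, chr3:142559794-142560093, plus strand for Gbp3, chr3:142530086-142530385, plus strand for Gbp7, and chr5:114896684-114896983, plus strand for Oasl2.
Ddx60: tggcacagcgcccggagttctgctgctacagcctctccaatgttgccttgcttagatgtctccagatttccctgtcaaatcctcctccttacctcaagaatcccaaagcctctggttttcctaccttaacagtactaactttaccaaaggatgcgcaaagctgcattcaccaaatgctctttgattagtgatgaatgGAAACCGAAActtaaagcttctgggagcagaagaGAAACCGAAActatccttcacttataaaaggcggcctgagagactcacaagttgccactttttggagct
Oas3: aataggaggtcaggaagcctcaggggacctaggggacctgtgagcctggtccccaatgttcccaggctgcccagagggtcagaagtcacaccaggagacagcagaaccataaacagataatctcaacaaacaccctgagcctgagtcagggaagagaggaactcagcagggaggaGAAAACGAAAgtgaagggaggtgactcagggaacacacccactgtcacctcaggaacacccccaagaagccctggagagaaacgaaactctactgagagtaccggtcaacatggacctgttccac
Ddx58: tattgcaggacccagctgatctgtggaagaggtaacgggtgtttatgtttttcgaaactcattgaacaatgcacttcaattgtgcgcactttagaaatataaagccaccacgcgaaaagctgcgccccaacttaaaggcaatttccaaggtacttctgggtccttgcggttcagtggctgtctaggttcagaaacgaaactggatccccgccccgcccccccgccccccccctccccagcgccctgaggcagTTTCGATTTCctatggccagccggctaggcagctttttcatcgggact
Gbp3: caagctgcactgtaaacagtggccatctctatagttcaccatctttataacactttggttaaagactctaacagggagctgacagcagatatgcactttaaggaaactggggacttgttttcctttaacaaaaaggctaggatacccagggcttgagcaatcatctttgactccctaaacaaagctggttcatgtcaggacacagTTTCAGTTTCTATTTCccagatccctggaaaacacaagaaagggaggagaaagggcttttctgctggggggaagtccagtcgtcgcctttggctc
Gbp7: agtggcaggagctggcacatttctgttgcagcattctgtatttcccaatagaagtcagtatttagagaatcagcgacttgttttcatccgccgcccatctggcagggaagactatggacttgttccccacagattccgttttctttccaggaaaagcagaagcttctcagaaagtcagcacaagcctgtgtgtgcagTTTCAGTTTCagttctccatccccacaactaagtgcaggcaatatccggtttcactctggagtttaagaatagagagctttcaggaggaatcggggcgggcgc
Oasl2: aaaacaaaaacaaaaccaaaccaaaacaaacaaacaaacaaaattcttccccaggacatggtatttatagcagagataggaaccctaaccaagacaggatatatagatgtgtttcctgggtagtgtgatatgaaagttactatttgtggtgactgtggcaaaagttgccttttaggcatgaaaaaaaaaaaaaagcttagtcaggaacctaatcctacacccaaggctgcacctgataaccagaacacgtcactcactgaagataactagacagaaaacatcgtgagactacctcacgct
Ddx60 holds 2 separate copies, Gbp3 holds 2 copies that overlap, and the other 3 hold 1 each. A match describes these letters and does not show binding, and its absence from the Oasl2 window says only that these letters are not in that window. The interferon gamma element TTCNNNGAA, searched in the same way, was in the windows of 5 of 15 interferon gamma genes (33.3%), against 9.55% of all genes in the table.

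Genes induced by interferon gamma, with MHC class II and antigen processing, were also above the healthy level. Of 21 tested members 5 rose and none fell, and the median change was 0.62. For 15 of the 21 every cyclosporine mouse was above every healthy mouse, against 6.55% of all genes. Gbp3, a guanylate-binding protein whose promoter is shown above, had 7.47, 7.21, 7.17 and 6.80 in cyclosporine colitis and 6.25, 6.27, 5.88 and 5.98 in untreated healthy mice (1.07 ± 0.23, adjusted p = 0.0135). Its rise held with any 1 of the 8 arrays left out. Gbp7, of the same family, had 9.36, 9.33, 8.77 and 9.24 in cyclosporine colitis and 7.29, 8.23, 8.25 and 8.18 in untreated healthy mice, of which mouse 2 was the lowest (1.19 ± 0.27, adjusted p = 0.0176). Ido1, the tryptophan-degrading enzyme indoleamine dioxygenase, spread widely, with 8.72, 8.10, 8.68 and 7.42 in cyclosporine colitis and 7.15, 7.16, 6.83 and 6.93 in untreated healthy mice (1.21 ± 0.35, adjusted p = 0.0438). H2-Ab1, a chain of MHC class II, rose by 0.67 ± 0.19 (adjusted p = 0.0443), and B2m, the light chain of MHC class I, which was listed among the reference genes, by 0.47 ± 0.08 (adjusted p = 0.00439). The Gbp7 call ended without untreated healthy mouse 2 or cyclosporine mouse 4, the Ido1 call without any array but cyclosporine mouse 10, and the H2-Ab1 call without any array but cyclosporine mouse 9. The list's count fell to between 1 and 3 without any array but cyclosporine mouse 9, without which it was 4.

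Relative to untreated colitis, 3 of the same 21 members were lower and none was higher, with a median of -0.61. Tap1, which pumps peptides to MHC class I, had 9.07, 8.75, 8.88 and 8.67 in cyclosporine colitis, against 9.59, 9.14, 9.52 and 9.94 in untreated colitis (-0.70 ± 0.21, adjusted p = 0.0317), while untreated healthy mice had 8.24, 8.25, 7.92 and 8.16. Psmb8, a subunit of the immunoproteasome, was lower by 0.64 on the log2 scale in cyclosporine colitis (adjusted p = 0.0157). For both genes every cyclosporine mouse lay between the other 2 groups. The Tap1 call was lost without untreated colitis mouse 5, 7 or 10 or cyclosporine mouse 7, 9 or 10 (adjusted p 0.0553 to 0.099). Without untreated colitis mouse 6, which had the lowest level of this list in its group (7.91, the others 8.52 to 9.11), 11 members were lower in cyclosporine colitis, and without untreated colitis mouse 5, 7 or 10 or cyclosporine mouse 7 or 9, 1 was.

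**Figure D1:**
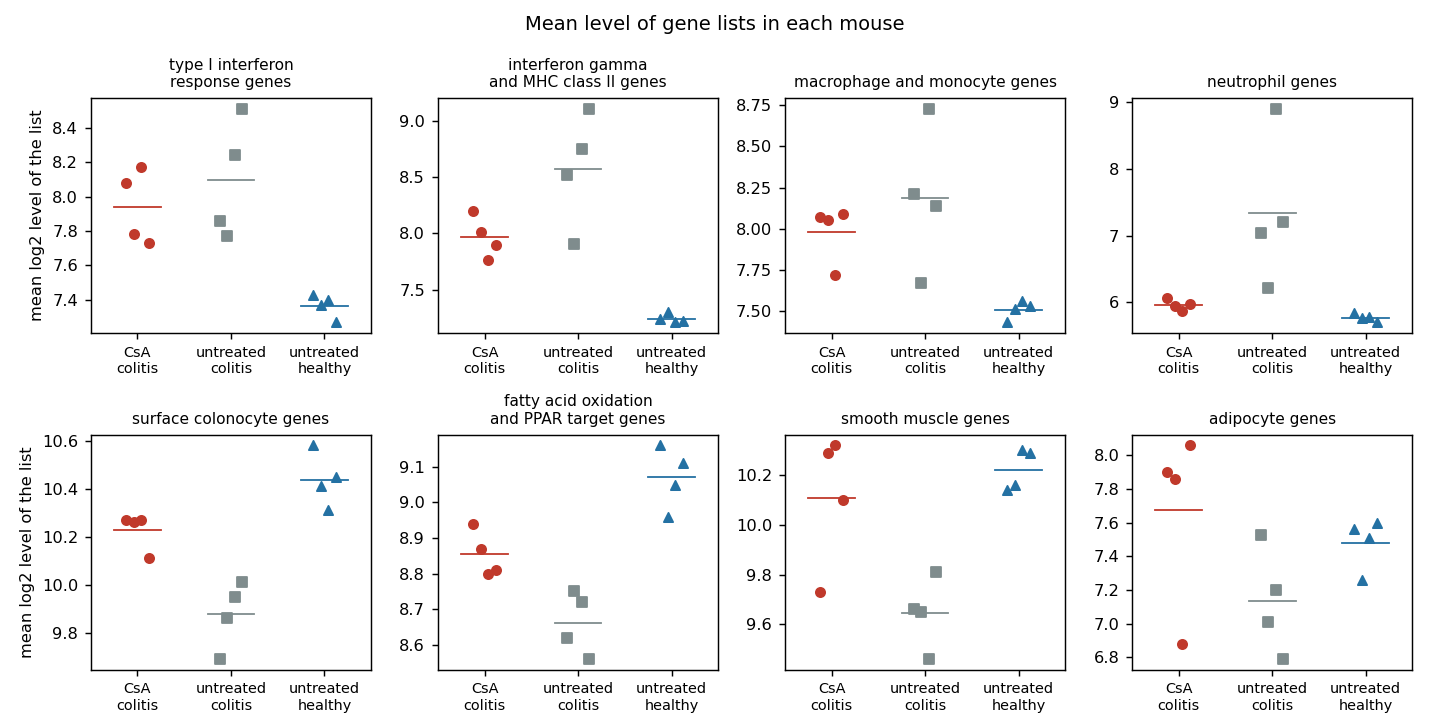
Mean log2 level of the tested members of 8 gene lists in each mouse (points), with the mean of each group (lines), for cyclosporine colitis, untreated colitis and untreated healthy mice. For type I interferon, interferon gamma, macrophage and neutrophil genes the 4 cyclosporine mice lie above all healthy mice. For surface colonocyte and fatty acid oxidation genes all 4 lie below all healthy mice. Cyclosporine mouse 9 is the low point for macrophage and adipocyte genes, and cyclosporine mouse 4 for smooth muscle genes.

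Macrophage genes were also in part above the healthy level. Of 18 tested members 4 rose and none fell in cyclosporine colitis, against 2.64% of all genes rising, with a median change of 0.45. Gpnmb, a glycoprotein of phagocytes with active lysosomes, was the largest rise by the naming rule and stands outside the list. It had 7.92, 8.03, 7.81 and 8.19 in cyclosporine colitis, 7.43, 6.56, 7.88 and 6.73 in untreated colitis and 6.50, 6.21, 6.12 and 6.03 in untreated healthy mice. All cyclosporine mice lay above all healthy mice, by 1.77 ± 0.23 (adjusted p = 0.00128, 3.41-fold). They also averaged 0.83 ± 0.23 above untreated colitis (adjusted p = 0.02), where untreated colitis mouse 7 lay among them. That second call was lost without untreated colitis mouse 6 or 10 or cyclosporine mouse 7 (adjusted p 0.0527 to 0.0664).

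Ms4a7, a membrane protein of tissue macrophages, varied little within groups: 8.58, 8.62, 8.48 and 8.70 in cyclosporine colitis, 8.07, 7.77, 8.30 and 7.97 in untreated colitis and 7.44, 7.56, 7.45 and 7.62 in untreated healthy mice. The 3 groups did not overlap. It rose by 1.08 ± 0.12 over untreated healthy (adjusted p = 0.000352, the smallest of the comparison) and was higher than untreated colitis by 0.57 ± 0.12 (adjusted p = 0.00406). Both calls held with any array left out. Its relatives Ms4a14 and Ms4a4a rose over untreated healthy by 1.39 ± 0.26 (adjusted p = 0.00779) and 1.27 ± 0.26 (adjusted p = 0.0106). Against untreated colitis they differed by 0.75 (interval 0.19 to 1.30, adjusted p = 0.0691) and -0.10 (interval -0.65 to 0.45, adjusted p = 0.85). Mpeg1, the pore-forming perforin-2 of macrophages, had 8.52, 8.44, 8.28 and 8.51 in cyclosporine colitis and 7.45, 7.32, 7.67 and 7.53 in untreated healthy mice (0.95 ± 0.19, adjusted p = 0.00943). Cd68, a lysosomal protein of macrophages, and Adgre1, a surface receptor of tissue macrophages, rose by 0.91 ± 0.24 (adjusted p = 0.0347) and 0.64 ± 0.16 (adjusted p = 0.0249). The Cd68 call was lost without any array but cyclosporine mouse 9, and the Adgre1 call without untreated healthy mouse 2 or cyclosporine mouse 4, 7 or 10. Without untreated healthy mouse 2 or cyclosporine mouse 4, 7 or 10 the list's count was 2. Cyclosporine mouse 9, the lowest of its group for fat genes, was also the lowest for this list, at 7.72 against 8.05 to 8.09 in the other 3, and the part of tissue makeup in these values was not tested.

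Cd4, the co-receptor of helper T cells that is also made by some myeloid cells, had 8.29, 8.20, 7.42 and 8.43 in cyclosporine colitis, 8.33, 7.02, 7.79 and 7.51 in untreated colitis and 6.88, 6.86, 6.75 and 6.24 in untreated healthy mice. All cyclosporine mice were above all healthy mice, by 1.40 ± 0.23 (adjusted p = 0.00409), and they overlapped with untreated colitis (0.42, interval -0.07 to 0.91). Cd3g, a chain of the T cell receptor complex, rose by 1.04 ± 0.27 (adjusted p = 0.0317), which did not pass without cyclosporine mouse 4 or 10 or untreated healthy mouse 2, 6 or 7. These were the 2 rises among 17 tested T cell genes, whose median change was 0.17 (2.64% of all genes rose), and without each of those same 5 arrays 1 passed. Lilrb4a, an inhibitory receptor of myeloid cells, had 9.85, 9.93, 9.36 and 9.91 in cyclosporine colitis and 8.03, 8.31, 8.35 and 8.13 in untreated healthy mice (1.56 ± 0.41, adjusted p = 0.0345). Its groups were more than 1 log2 unit apart, but the shared estimate of spread took in untreated colitis values of 8.96 to 11.85, and the call ended without untreated healthy mouse 2, 6 or 7 or cyclosporine mouse 4, 7 or 10. No B cell or plasma cell gene passed limma's test against untreated healthy (22 tested, median 0.51, with 6 higher and 1 lower at an unadjusted p under 0.05), and 3 were lower than in untreated colitis. That count of 3 was 0 without untreated colitis mouse 5, 1 without untreated colitis mouse 7 or cyclosporine mouse 4, 7 or 9, 12 without untreated colitis mouse 6 and 15 without cyclosporine mouse 10.

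**Figure D2:**
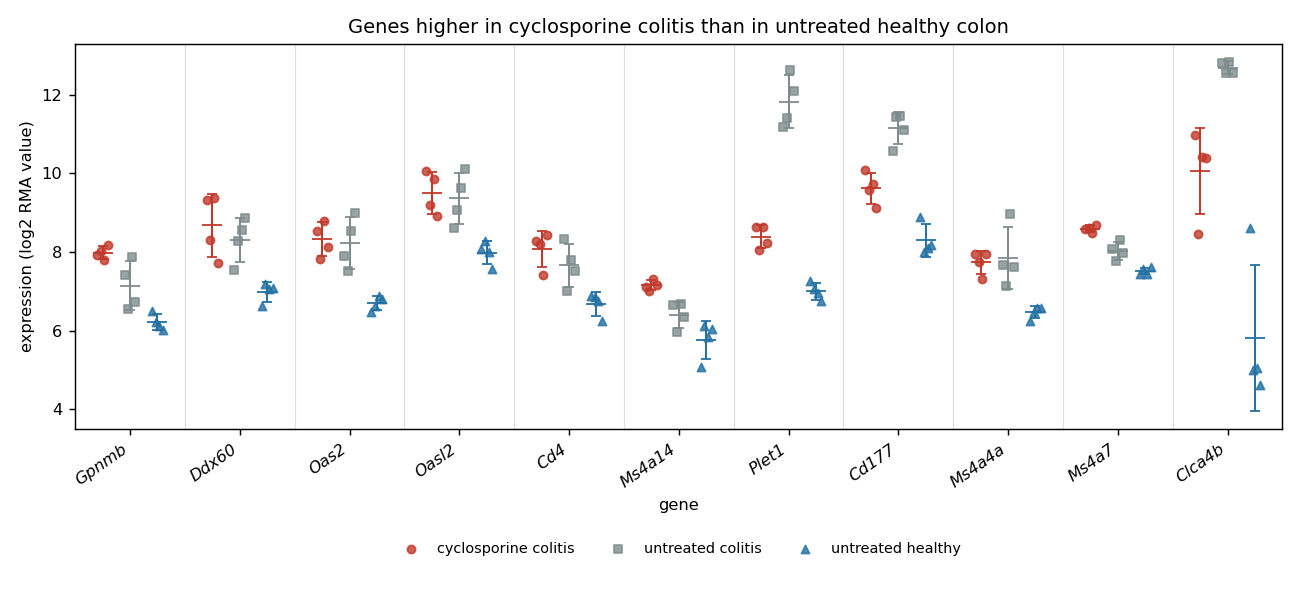
Log2 RMA values of 11 genes that rose in cyclosporine colitis, for each mouse of the cyclosporine colitis, untreated colitis and untreated healthy groups, with group mean and SD (n = 4 each). For Ms4a7 every cyclosporine mouse lies above all mice of the other groups. Gpnmb and the interferon genes Ddx60, Oas2 and Oasl2 overlap with untreated colitis, and Plet1 and Cd177 lie between the other groups. For Clca4b cyclosporine mouse 7 lies just below untreated healthy mouse 2.

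Inflammatory genes of the epithelium and of neutrophils stood between the other 2 groups or near the healthy level. Of 20 tested epithelial antimicrobial and acute phase genes 3 rose over untreated healthy and 1, Il18, fell by 0.42 on the log2 scale (adjusted p = 0.0453), with a median of 0.47, and 9 were lower than in untreated colitis, with a median of -0.90. Duox2, the epithelial oxidase that makes hydrogen peroxide, had 9.44, 9.20, 9.09 and 9.29 in cyclosporine colitis, 9.91, 10.03, 10.22 and 10.01 in untreated colitis and 8.73, 8.51, 7.98 and 8.21 in untreated healthy mice. The 3 groups did not overlap: cyclosporine colitis was 0.90 ± 0.15 above untreated healthy (adjusted p = 0.00409) and 0.79 ± 0.15 below untreated colitis (log2 difference -0.79, adjusted p = 0.00206). Steap4, a metalloreductase induced by inflammation, had 7.17, 7.31, 7.08 and 7.47 in cyclosporine colitis, 9.26, 9.67, 9.43 and 9.13 in untreated colitis and 6.64, 6.44, 6.29 and 6.74 in untreated healthy mice (0.73 ± 0.19, adjusted p = 0.0297, and -2.12 ± 0.19, adjusted p = 3.62e-06). The first Steap4 call ended without untreated healthy mouse 2, 4 or 6 or cyclosporine mouse 4, 7 or 10. Zbp1, a sensor of unusual nucleic acids that interferon induces, rose over untreated healthy by 0.99 ± 0.22 (adjusted p = 0.015) and differed from untreated colitis by -0.47 (interval -0.93 to -0.01, adjusted p = 0.172). The Il18 call was lost without any array but untreated healthy mouse 6.

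Cd177, a surface protein of neutrophils that the inflamed gut epithelium also makes, was the only rise among 19 tested neutrophil genes, whose median change was 0.09 (2.64% of all genes rose). It had 10.08, 9.58, 9.72 and 9.13 in cyclosporine colitis, 10.58, 11.44, 11.47 and 11.11 in untreated colitis and 8.90, 8.01, 8.10 and 8.17 in untreated healthy mice, with no overlap. The rise of 1.33 ± 0.21 over untreated healthy (adjusted p = 0.00348) held with any array left out, and the group was lower than untreated colitis (-1.52 ± 0.21, adjusted p = 0.000223). For 4 of the 19 genes every cyclosporine mouse lay above every healthy mouse, against 6.55% of all genes. The list means were 5.87 to 6.06 in cyclosporine colitis and 5.70 to 5.84 in untreated healthy mice. Standard errors were large for some members, 1.02 for Retnlg and 0.82 for S100a8, and untreated colitis enters the shared estimate of spread. Against untreated colitis 5 neutrophil genes were lower, where 5.58% of all genes were, and the list median was -1.45. That count was between 1 and 3 without any untreated colitis or cyclosporine array but untreated colitis mouse 6, and 14 without that mouse, whose neutrophil level of 6.22 was the lowest of its group (the others 7.04 to 8.90).

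Plet1, a membrane protein of regenerating colonic epithelium, had 8.63, 8.05, 8.64 and 8.24 in cyclosporine colitis, 11.18, 11.40, 12.63 and 12.10 in untreated colitis and 7.27, 7.06, 6.96 and 6.75 in untreated healthy mice. It was 1.38 ± 0.35 above untreated healthy (adjusted p = 0.0292) and 10.8-fold below untreated colitis (log2 difference -3.44 ± 0.35, adjusted p = 1.22e-05). Clca4b, a chloride channel accessory protein of the epithelium, was at 10.97, 8.47, 10.41 and 10.40 in cyclosporine colitis, at 12.82, 12.55, 12.83 and 12.56 in untreated colitis and at 8.60, 5.00, 5.05 and 4.61 in untreated healthy mice. Untreated healthy mouse 2 stood far above its group and overlapped with cyclosporine mouse 7. The difference from untreated healthy was 4.25 ± 0.73 (adjusted p = 0.00439), and 3 of the healthy values were below 5.30, the level set by the filter on dim probe sets. Against untreated colitis Clca4b was lower (-2.63 ± 0.73, adjusted p = 0.0221), which did not pass without mouse 7 of either group. Serpina3n, a secreted protease inhibitor of the acute phase, rose over untreated healthy (1.33 ± 0.35, adjusted p = 0.0346) and was lower than untreated colitis (-1.50 ± 0.35, adjusted p = 0.00888). The rise of Plet1 was lost without untreated healthy mouse 2, 6 or 7 or cyclosporine mouse 4, 9 or 10, and that of Serpina3n without untreated healthy mouse 2, 6 or 7 or cyclosporine mouse 4, 7 or 10.

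No acute cytokine or chemokine passed limma's test against untreated healthy in either direction (16 tested, median 0.11, and 0 at an unadjusted p under 0.05). Il1b, the cytokine interleukin 1 beta, had 7.70, 7.43, 7.40 and 7.73 in cyclosporine colitis and 6.54, 6.60, 6.39 and 6.64 in untreated healthy mice. These groups were 1.02 apart without overlap, but the standard error was 0.71 (adjusted p = 0.4), since untreated colitis ran between 7.80 and 12.59 and enters the shared estimate of spread. Tnf was at 7.32, 6.96, 7.21 and 7.47 in cyclosporine colitis, 8.23, 8.04, 9.09 and 8.51 in untreated colitis and 7.13, 6.84, 6.80 and 7.04 in untreated healthy mice, and was lower than in untreated colitis (-1.23 ± 0.24, adjusted p = 0.00248). In all 6 of the 16 cytokine genes were lower than in untreated colitis, with a list median of -0.72. That count was between 2 and 4 without untreated colitis mouse 5 or 7 or any cyclosporine mouse, 5 without untreated colitis mouse 10 and 11 without untreated colitis mouse 6, and the Il1b difference of -2.49 was -1.65 without untreated colitis mouse 7.

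Tested transcripts of the pathway that cyclosporine acts on gave no call against untreated healthy. These are mRNA levels, and calcineurin activity was not measured. Ppia, cyclophilin A, had no probe set with its symbol alone and was not tested. Of 22 listed genes of cyclophilins, calcineurin and NFAT 18 were on the array. None of 16 tested calcineurin-NFAT target genes passed limma's test (median 0.0091, 8 further members dim), nor did any of 17 genes of cyclophilins, calcineurin and NFAT (median 0.18). At an unadjusted p under 0.05 1 target gene was higher, and of the 17 genes 7 were higher and 2 lower. Over all genes 24% passed at that threshold in either direction. Against untreated colitis 2 of the 17 were higher and 2 lower, where 7.58% and 5.58% of all genes were. Rcan2 was higher by 0.77 (adjusted p = 0.00105), a call that held with any array left out. Ppib, cyclophilin B, was lower by 0.24 on the log2 scale (adjusted p = 0.0452). The Ppib call was lost without untreated colitis mouse 6 or 7 or any cyclosporine mouse. Of the 16 target genes 3 were lower than in untreated colitis, where 5.58% of all genes were. They were Il2ra, the interleukin 2 receptor alpha chain, by 0.66 on the log2 scale (adjusted p = 0.0217), Tnfrsf9, a co-stimulatory receptor, by 0.65 (adjusted p = 0.0261), and Ctla4, an inhibitory receptor of T cells, by 0.55 (adjusted p = 0.0451). Il2ra had 6.88, 6.65, 6.57 and 6.92 in cyclosporine colitis, 7.77, 6.78, 7.52 and 7.58 in untreated colitis and 6.66, 6.30, 6.64 and 6.56 in untreated healthy mice. None of the 3 passed without untreated colitis mouse 5 or 7 or cyclosporine mouse 7 or 9.

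Complement and vessel genes rose in small numbers, against 2.64% of all genes rising. Of 18 tested complement genes 3 rose over untreated healthy (median 0.43). The third, C2, a protease of the classical pathway, did not pass with any array left out but untreated healthy mouse 2. Cd55, decay-accelerating factor, which protects cells from complement, had 9.38, 9.42, 9.53 and 9.70 in cyclosporine colitis, 9.67, 9.29, 9.60 and 9.27 in untreated colitis and 8.56, 8.59, 8.69 and 8.92 in untreated healthy mice. The rise of 0.82 ± 0.10 (adjusted p = 0.00128) held with any array left out, and against untreated colitis the difference was 0.05 (interval -0.16 to 0.27). C3ar1, the receptor for complement fragment C3a on myeloid cells, rose by 0.82 ± 0.16 (adjusted p = 0.00779). Of 24 tested endothelial and lymphatic genes 3 rose (median 0.25). Tek, the angiopoietin receptor TIE2, had 7.32, 7.50, 7.48 and 7.57 in cyclosporine colitis, 7.22, 6.53, 6.82 and 6.86 in untreated colitis and 6.52, 7.11, 6.96 and 6.99 in untreated healthy mice, and was above both (0.57 ± 0.14, adjusted p = 0.0212, and 0.61 ± 0.14, adjusted p = 0.00629). Vcam1, an adhesion molecule for leukocytes, rose by 1.00 ± 0.25 (adjusted p = 0.0245), and Ptprb, a phosphatase of vessel walls, by 0.50 ± 0.14 (adjusted p = 0.0407). The Vcam1 rise did not pass without cyclosporine mouse 4, 7 or 10 or untreated healthy mouse 2 or 7, and that of Ptprb without cyclosporine mouse 7, 9 or 10 or untreated healthy mouse 2, 6 or 7. No endothelial gene passed without untreated healthy mouse 2 or cyclosporine mouse 10, and 1 passed without untreated healthy mouse 7 or cyclosporine mouse 7.

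Of 28 tested ion and water transport genes 5 fell and 1, Clca4b, rose (median -0.18), against 3.38% of all genes falling and 2.64% rising. Fxyd4, a regulatory subunit of the sodium pump, had 8.04, 8.56, 7.92 and 8.37 in cyclosporine colitis, 8.87, 7.74, 7.41 and 6.70 in untreated colitis and 9.76, 9.71, 9.83 and 9.97 in untreated healthy mice. It fell by 1.59 on the log2 scale (SE 0.29, adjusted p = 0.00619), the largest fall by the naming rule, and held with any array left out. Atp12a, the colonic proton-potassium pump, had 11.44, 11.24, 10.88 and 11.17 in cyclosporine colitis, 11.28, 11.29, 10.93 and 11.22 in untreated colitis and 12.47, 11.68, 11.61 and 12.09 in untreated healthy mice. It fell by 0.78 on the log2 scale (SE 0.18, adjusted p = 0.0208), and against untreated colitis the interval was -0.38 to 0.39. The Atp12a call ended without untreated healthy mouse 2 or 7 or cyclosporine mouse 9. The list's 5 falls were 1 without untreated healthy mouse 2 and 2 or 3 without untreated healthy mouse 6 or 7 or cyclosporine mouse 7, 9 or 10. Untreated healthy mouse 2 had the highest mean of this list, 10.01, against 9.72 to 9.73 in the other healthy mice. That mean takes in Clca4b, the gene that rose, at 8.60 in mouse 2 and 4.61 to 5.05 in the others.

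Of 23 tested surface colonocyte genes 4 fell and 1 rose over untreated healthy, where 3.38% of all genes fell and 2.64% rose. Against untreated colitis 10 were higher and 2 lower, where 7.58% and 5.58% of all genes were. The 2 lower were Guca2b, by 0.48, and Ms4a8a, by 0.32 on the log2 scale (adjusted p = 0.00343 and 0.00336). Slc20a1, a phosphate transporter, had 10.71, 10.62, 10.45 and 9.75 in cyclosporine colitis, 9.99, 9.46, 9.40 and 9.25 in untreated colitis and 11.01, 11.43, 11.56 and 11.83 in untreated healthy mice. It was below untreated healthy (-1.08 ± 0.23, adjusted p = 0.0122) and above untreated colitis (0.86 ± 0.23, adjusted p = 0.0173), the second call being lost without untreated colitis mouse 10 or cyclosporine mouse 4 or 7. Aqp8, the water channel of surface colonocytes, was likewise between: 9.80, 9.83, 9.35 and 9.43 in cyclosporine colitis, 8.58, 9.30, 9.13 and 8.71 in untreated colitis and 10.65, 10.37, 10.35 and 10.60 in untreated healthy mice. Its fall of 0.89 on the log2 scale below untreated healthy (adjusted p = 0.0146) was lost without untreated healthy mouse 2 (adjusted p = 0.05), and its difference of 0.67 from untreated colitis (adjusted p = 0.0301) without untreated colitis mouse 5 or 10 or cyclosporine mouse 4 or 7. Car1, carbonic anhydrase 1, had 12.06, 12.22, 12.19 and 12.42 in cyclosporine colitis, 11.86, 11.19, 11.57 and 11.65 in untreated colitis and 12.95, 12.73, 12.89 and 12.74 in untreated healthy mice, with no overlap (-0.60 ± 0.12, adjusted p = 0.00926, and 0.66 ± 0.12, adjusted p = 0.00159). The 1 rise, Emp1, an epithelial membrane protein, was 0.60 ± 0.17 (adjusted p = 0.0423) and was lost whichever array was left out. Without untreated healthy mouse 2 the count of falls was 2.

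**Figure D3:**
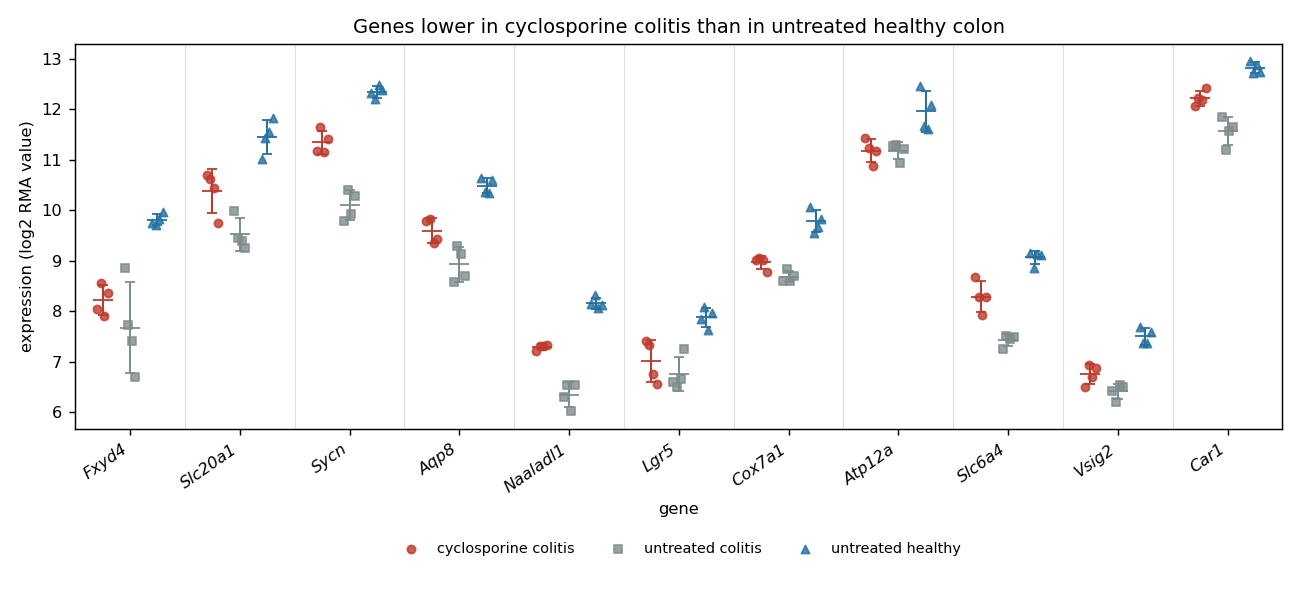
Log2 RMA values of 11 genes that fell in cyclosporine colitis, for each mouse of the cyclosporine colitis, untreated colitis and untreated healthy groups, with group mean and SD (n = 4 each). Sycn, Naaladl1, Slc6a4 and Car1 show 3 separate levels, and for Atp12a and Lgr5 the cyclosporine and untreated colitis values overlap.

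Several of the largest falls lay outside these lists. Sycn, which encodes the secretory granule protein syncollin, had 11.18, 11.65, 11.15 and 11.41 in cyclosporine colitis, 9.80, 10.41, 9.93 and 10.29 in untreated colitis and 12.32, 12.21, 12.48 and 12.39 in untreated healthy mice (-1.0 ± 0.18, adjusted p = 0.00522, and 1.24 ± 0.18, adjusted p = 0.000244). Naaladl1, a peptidase of the intestinal brush border, had 7.21, 7.32, 7.32 and 7.33 in cyclosporine colitis, 6.31, 6.54, 6.02 and 6.55 in untreated colitis and 8.14, 8.32, 8.07 and 8.12 in untreated healthy mice (-0.87 ± 0.15, adjusted p = 0.00547). Slc6a4, the serotonin transporter, had 8.68, 8.28, 7.93 and 8.29 in cyclosporine colitis, 7.25, 7.51, 7.46 and 7.50 in untreated colitis and 9.16, 8.87, 9.14 and 9.11 in untreated healthy mice (-0.78 ± 0.17, adjusted p = 0.0135). These 3 genes stood at 3 levels, with cyclosporine colitis between the others. Cox7a1, a subunit of respiratory complex IV typical of muscle, had 9.01, 9.06, 9.02 and 8.79 in cyclosporine colitis and 10.06, 9.56, 9.67 and 9.84 in untreated healthy mice (-0.81 ± 0.11, adjusted p = 0.00128), and Vsig2, an immunoglobulin-domain membrane protein, fell by 0.75 on the log2 scale (adjusted p = 0.00348). Smooth muscle genes, which bear on Cox7a1, had mean levels of 9.73 to 10.32 in cyclosporine colitis, 9.46 to 9.81 in untreated colitis and 10.14 to 10.30 in untreated healthy mice. None of the 20 tested smooth muscle genes passed limma's test against untreated healthy, with 1 higher and 2 lower at an unadjusted p under 0.05. Of 9 tested skeletal muscle genes 1 fell, Tnnc2, by 0.29 on the log2 scale (adjusted p = 0.0406). At an unadjusted p under 0.05 4 of the 9 were lower and 0 higher. The Tnnc2 call was lost without untreated healthy mouse 2, 6 or 7 or cyclosporine mouse 4, 9 or 10. The part of muscle content in the Cox7a1 fall was not tested. The falls of Sycn, Naaladl1, Slc6a4, Cox7a1 and Vsig2 held with any array left out. Of 6 tested pancreatic acinar genes 2 fell, Cela1 by 0.61 and Pnliprp1 by 0.49 on the log2 scale (adjusted p = 0.0413 and 0.0145), and neither passed without untreated healthy mouse 2. Cela1 kept its call only when untreated healthy mouse 4 was the array left out.

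Lgr5, the marker of crypt base stem cells, had 7.42, 7.33, 6.76 and 6.57 in cyclosporine colitis, 6.61, 6.50, 6.66 and 7.26 in untreated colitis and 7.85, 8.08, 7.64 and 7.97 in untreated healthy mice. It fell by 0.86 on the log2 scale below untreated healthy (SE 0.20, adjusted p = 0.0186), and the call ended without untreated healthy mouse 7 or cyclosporine mouse 10 (adjusted p 0.0515 to 0.057). Of 18 tested stem cell and Wnt target genes 3 fell and none rose (median -0.16); Smoc2 and Lrig1 were the others, by 0.28 and 0.36 on the log2 scale (adjusted p = 0.0476 and 0.0403). None of the 3 falls passed without untreated healthy mouse 7 or cyclosporine mouse 10, and 1 or 2 did without each other array. None of 23 tested cell cycle genes passed limma's test against either group; at an unadjusted p under 0.05 3 were higher and 2 lower against untreated healthy, and 3 were lower against untreated colitis.

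Genes of fatty acid oxidation and PPAR targets were below the healthy level: 7 of 26 tested members fell and none rose over untreated healthy, against 3.38% of all genes falling, and the median change was -0.23. For 11 members every cyclosporine mouse was below every healthy mouse, against 8.19% of all genes. Ech1, an isomerase of beta-oxidation, had 10.05, 10.13, 10.01 and 10.12 in cyclosporine colitis, 10.05, 10.29, 10.21 and 9.97 in untreated colitis and 10.70, 10.43, 10.54 and 10.61 in untreated healthy mice (-0.49 ± 0.08, adjusted p = 0.0029). Acadvl, the dehydrogenase of very long chains, had 8.43, 8.37, 8.32 and 8.42 in cyclosporine colitis and 8.73, 8.72, 8.75 and 8.84 in untreated healthy mice (-0.38 ± 0.06, adjusted p = 0.004). Plin2, the coat protein of lipid droplets, fell by 0.57 on the log2 scale (SE 0.11, adjusted p = 0.00658). The changes were small but narrow in spread, and these 3 calls held with any array left out. Against untreated colitis Ech1 and Plin2 differed by -0.05 (interval -0.21 to 0.11) and -0.03 (interval -0.25 to 0.19). Other members were higher than in untreated colitis, 6 of 26 and none lower. Acot2, a mitochondrial thioesterase, had 9.15, 9.30, 8.56 and 9.04 in cyclosporine colitis and 8.18, 8.03, 8.22 and 7.93 in untreated colitis (0.93 ± 0.16, adjusted p = 0.000855), and Acadm, the dehydrogenase of medium chains, was higher by 0.46 ± 0.10 (adjusted p = 0.00588). The count of falls was 3 or 4 without untreated healthy mouse 2 or 7 or cyclosporine mouse 4, 9 or 10, and that of rises against untreated colitis was 3 without untreated colitis mouse 5 or cyclosporine mouse 4.

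Of 37 tested genes of xenobiotic metabolism and drug transport 5 fell and none rose over untreated healthy (median -0.12), while 16 were higher and 1 lower than in untreated colitis (median 0.47). Over all genes 3.38% fell against untreated healthy, and 7.58% were higher and 5.58% lower than in untreated colitis. Nr1i3, the drug-sensing receptor CAR, had 6.08, 6.28, 6.09 and 6.05 in cyclosporine colitis, 6.36, 6.10, 6.17 and 6.19 in untreated colitis and 6.60, 6.53, 6.62 and 6.80 in untreated healthy mice (-0.51 ± 0.09, adjusted p = 0.00611). Gstp1, a glutathione transferase, fell by 0.44 on the log2 scale (adjusted p = 0.0072). Gstt1, another glutathione transferase, had 8.21, 8.52, 8.14 and 8.13 in cyclosporine colitis, 7.55, 7.73, 7.74 and 7.73 in untreated colitis and 8.56, 8.80, 8.63 and 8.67 in untreated healthy mice, and was lower than untreated healthy (-0.41 ± 0.08, adjusted p = 0.00926) and higher than untreated colitis (0.56 ± 0.08, adjusted p = 0.000278). Gstm1 was higher than untreated colitis by 0.91 ± 0.12 (adjusted p = 0.000149) and differed from untreated healthy by -0.31 (adjusted p = 0.122). The falls of Nr1i3, Gstp1 and Gstt1 held with any array left out. The count was 3 without untreated healthy mouse 2 or 7 or cyclosporine mouse 4 or 10, and the fall of Abcc3, a drug exporter (-0.31 on the log2 scale, adjusted p = 0.0399), passed only when cyclosporine mouse 7 was the array left out. Srebf2, the regulator of cholesterol synthesis, had 9.59, 9.67, 9.74 and 9.71 in cyclosporine colitis and 10.07, 10.03, 10.07 and 9.91 in untreated healthy mice (-0.34 ± 0.07, adjusted p = 0.0115). It was 1 of 2 falls among 22 tested genes of lipid synthesis, of which 1 rose. The other fall was Acly (-0.41, limma adjusted p = 0.036), which passed only when untreated healthy mouse 2 was the array left out. The rise was Elovl6 (0.34, limma adjusted p = 0.0421), lost without untreated healthy mouse 2, 6 or 7 or cyclosporine mouse 4, 7 or 10.

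**Figure D4:**
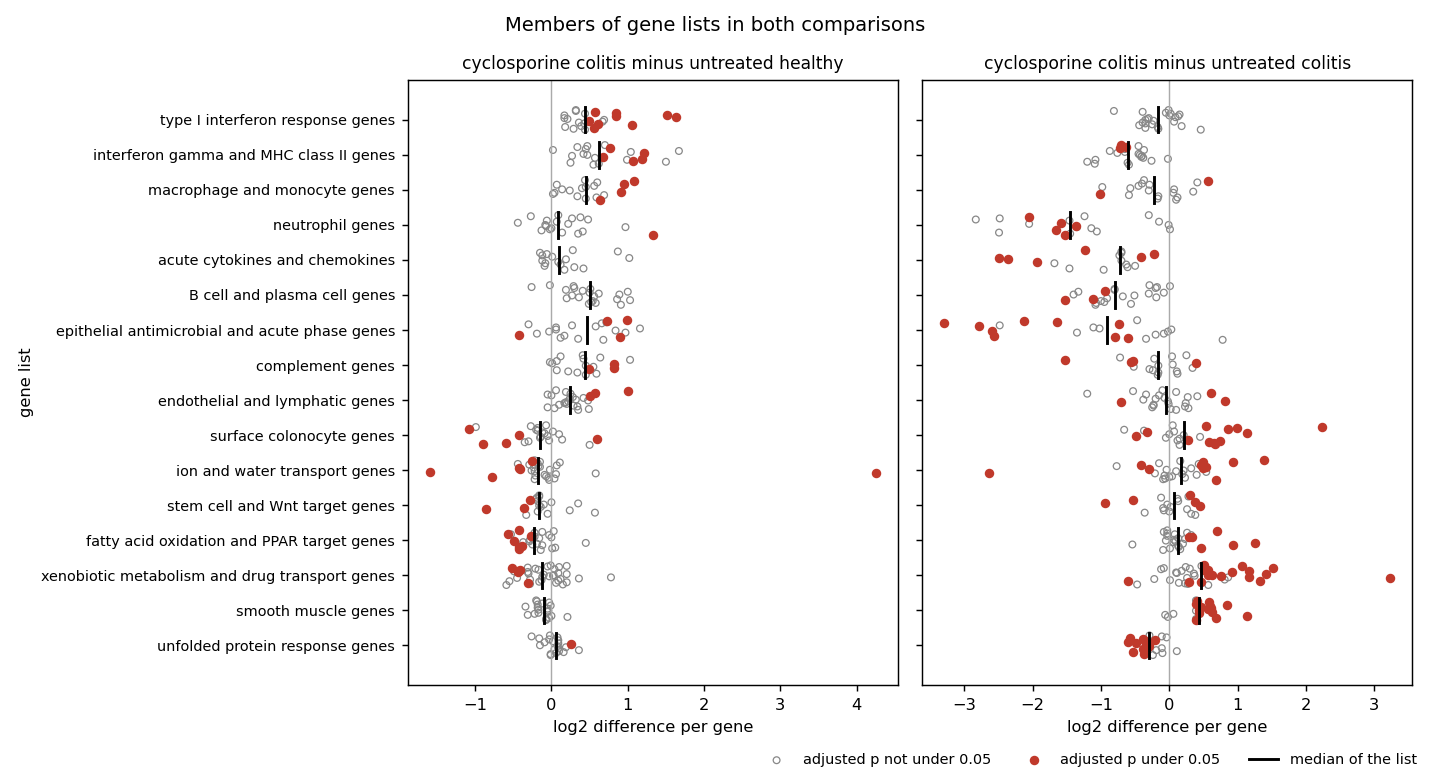
Log2 difference of every tested member of 16 gene lists for cyclosporine colitis minus untreated healthy (left) and cyclosporine colitis minus untreated colitis (right), with filled points for an adjusted p under 0.05 and a black line at the list median. The 2 panels share the cyclosporine arrays. Type I interferon genes have 9 filled points on the left and 0 on the right, and smooth muscle genes have 0 on the left and 14 on the right.

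The direct comparison with untreated colitis called more genes, 1268 higher (7.58%) and 934 lower (5.58%), of which 86 (0.514%) and 63 (0.376%) differed at least 2-fold. With each of the 8 arrays left out in turn, 703 of the higher calls (55.4%) and 356 of the lower calls (38.1%) held. Mptx1, a pentraxin of the intestine, had 10.72, 10.62, 10.45 and 10.25 in cyclosporine colitis, 6.62, 6.20, 7.65 and 8.24 in untreated colitis and 11.55, 11.19, 11.26 and 11.53 in untreated healthy mice. It was 3.33 ± 0.52 above untreated colitis (adjusted p = 0.000467), the largest positive difference, and -0.87 from untreated healthy (SE 0.52, adjusted p = 0.317). Cyp2c69, a cytochrome P450, was higher by 3.23 ± 0.51 (adjusted p = 0.000535), where all 4 untreated colitis values, 2.95 to 4.53, were below the filter level. Slc37a2, a sugar phosphate carrier, was higher by 2.23 ± 0.33 (adjusted p = 0.000303). Tppp3, a tubulin-binding protein, had 9.20, 9.68, 9.53 and 9.76 in cyclosporine colitis, 7.50, 7.62, 7.39 and 7.59 in untreated colitis and 9.15, 9.44, 9.42 and 9.20 in untreated healthy mice (2.02 ± 0.15, adjusted p = 4.12e-07). Cpm, carboxypeptidase M, had 9.25, 9.34, 9.34 and 9.48 in cyclosporine colitis, 7.86, 7.30, 7.34 and 7.87 in untreated colitis and 8.46, 9.40, 9.40 and 9.12 in untreated healthy mice (1.76 ± 0.18, adjusted p = 1.35e-05). Retnla, a resistin-like molecule of macrophages and fat, was higher by 2.07 ± 0.32 (adjusted p = 0.000467). For Tppp3, Cpm, Cyp2c69 and Retnla the cyclosporine and untreated healthy values overlapped.

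On the low side, Plet1 and Clca4b are described above. Sptssb, a small subunit of the enzyme that starts sphingolipid synthesis, had 4.16, 4.49, 5.11 and 4.35 in cyclosporine colitis, 8.04, 7.43, 8.55 and 7.31 in untreated colitis and 4.13, 3.97, 4.10 and 3.94 in untreated healthy mice (-3.31 ± 0.29, adjusted p = 3.62e-06), so that both other groups were below the filter level. Nos2, the inducible nitric oxide synthase, had 7.00, 6.74, 7.07 and 7.63 in cyclosporine colitis, 8.63, 9.56, 10.54 and 10.09 in untreated colitis and 6.69, 6.58, 5.62 and 6.18 in untreated healthy mice (-2.60 ± 0.43, adjusted p = 0.000841). Every cyclosporine mouse was above every healthy mouse, but the difference from untreated healthy, 0.84 ± 0.43, did not pass (adjusted p = 0.246). Retnlb, a resistin-like molecule of goblet cells, had 6.89, 5.87, 5.70 and 5.55 in cyclosporine colitis, 8.22, 8.80, 10.06 and 8.06 in untreated colitis and 5.65, 5.34, 5.34 and 5.34 in untreated healthy mice (-2.78 ± 0.41, adjusted p = 0.000303). Saa3, an acute phase serum amyloid, had 6.50, 6.20, 6.11 and 6.37 in cyclosporine colitis and 9.86, 6.63, 12.04 and 9.84 in untreated colitis (-3.29 ± 0.97, adjusted p = 0.03). The wide spread of Saa3 lies in untreated colitis, and the call was lost without untreated colitis mouse 5, 7 or 10 or cyclosporine mouse 4, 7 or 9.

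**Figure D5:**
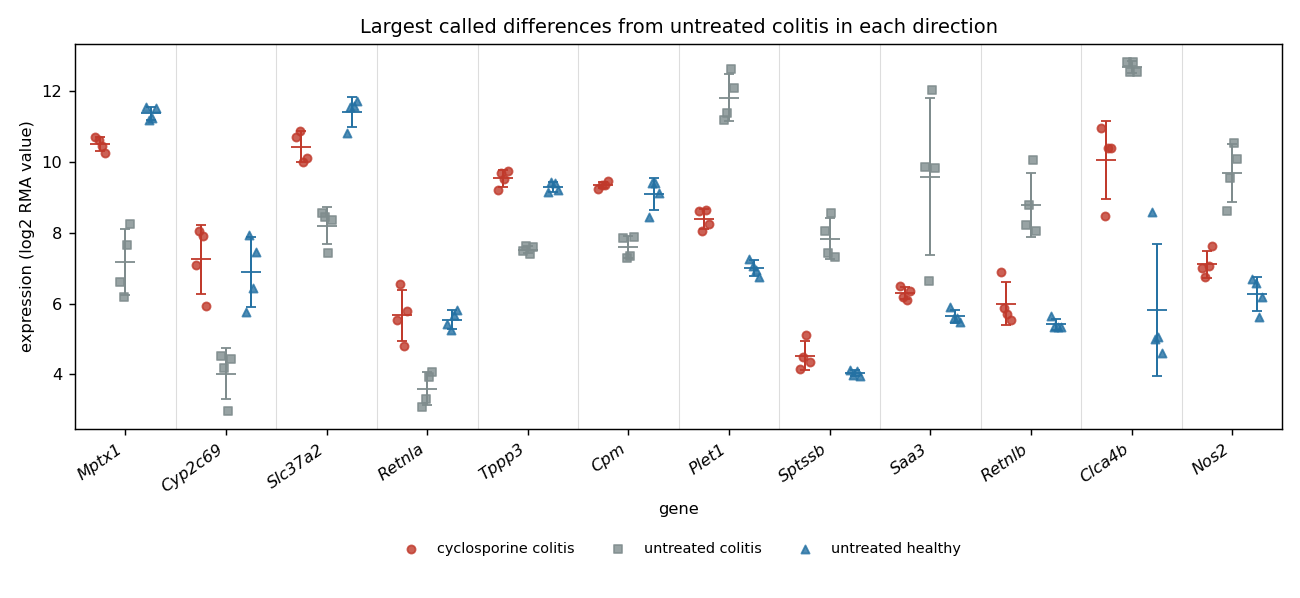
Log2 RMA values of the 6 genes with the largest positive and the 6 with the largest negative difference between cyclosporine colitis and untreated colitis, among genes that passed and whose groups did not overlap, for each mouse, with untreated healthy mice beside them and group mean and SD (n = 4 each). The cyclosporine and untreated colitis values do not overlap for any of the 12 genes, and the cyclosporine values of Plet1 lie between those of the other groups.

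By list, the direct comparison showed 14 of 20 smooth muscle genes higher in cyclosporine colitis (median 0.44) and none lower, against 7.58% of all genes higher and 5.58% lower, shares that also stand beside the counts of the next lists. Casq2, the calcium store protein calsequestrin, had 7.07, 7.31, 7.35 and 7.01 in cyclosporine colitis, 5.94, 6.04, 5.79 and 6.40 in untreated colitis and 6.86, 7.26, 7.43 and 7.17 in untreated healthy mice (1.14 ± 0.16, adjusted p = 0.000241). The count was 8 without untreated colitis mouse 7 or cyclosporine mouse 7 or 9, and 16 without cyclosporine mouse 4, the lowest mouse of its group for this list. The share of muscle in each piece of colon was not measured, and fewer muscle cells and less RNA per cell cannot be told apart there either. Of 21 genes of the unfolded protein response 13 were lower than in untreated colitis and none higher (median -0.30), and 10 to 13 were with any array left out. Calr, the chaperone calreticulin, had 11.83, 11.63, 11.78 and 11.81 in cyclosporine colitis, 12.14, 12.10, 12.13 and 12.17 in untreated colitis and 11.89, 11.74, 11.83 and 11.63 in untreated healthy mice (-0.37 ± 0.07, adjusted p = 0.00198). Against untreated healthy 1 of the 21 rose, Hsp90b1, by 0.25 ± 0.07 (adjusted p = 0.0369), a call lost without any array but untreated healthy mouse 6. Of 16 circadian clock genes 8 were higher and 2 lower than in untreated colitis, and none passed limma's test against untreated healthy (2 higher at an unadjusted p under 0.05). Nr1d1, the clock repressor REV-ERB alpha, had 9.78, 10.06, 10.09 and 10.03 in cyclosporine colitis, 8.61, 7.89, 8.64 and 9.31 in untreated colitis and 10.14, 10.02, 10.47 and 10.45 in untreated healthy mice (1.38 ± 0.21, adjusted p = 0.000434). The time of day of tissue collection is not given in the sources used here. With any array left out 5 to 7 clock genes were higher, 5 of them without untreated colitis mouse 5, 7 or 10 or cyclosporine mouse 7.

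Of the genes named here, Gpnmb, Ms4a7 and Tek were higher in cyclosporine colitis than in untreated colitis and in untreated healthy mice, and Kcnn4, Smoc2 and Vaultrc5 were lower than in both. Kcnn4, a calcium-activated potassium channel, had 7.94, 7.99, 8.08 and 8.13 in cyclosporine colitis, 8.41, 8.52, 8.20 and 8.17 in untreated colitis and 8.57, 8.33, 8.43 and 8.46 in untreated healthy mice (-0.29 ± 0.09, adjusted p = 0.0481, and -0.41 ± 0.09, adjusted p = 0.0166). Smoc2, a secreted matrix protein of the crypt base, had 7.69, 7.51, 7.52 and 7.54 in cyclosporine colitis, 7.88, 8.28, 8.11 and 8.12 in untreated colitis and 7.99, 7.82, 7.84 and 7.76 in untreated healthy mice, all of them above every cyclosporine value (-0.53 ± 0.08, adjusted p = 0.000467, and -0.28 ± 0.08, adjusted p = 0.0476). Vaultrc5, a vault RNA, was lower by 0.58 and 0.79 on the log2 scale (adjusted p = 0.0142 and 0.00686). Against untreated colitis Kcnn4 lost its call without untreated colitis mouse 5 or 6 or cyclosporine mouse 4, 7 or 9, and Vaultrc5 without cyclosporine mouse 4. Against untreated healthy Smoc2 lost its call whichever array was left out, and Kcnn4 without untreated healthy mouse 2 or cyclosporine mouse 4, and the Tek call there was lost without untreated healthy mouse 2 or cyclosporine mouse 10.

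Among the lists not yet described, none of 27 extracellular matrix genes passed limma's test against untreated healthy (3 higher at an unadjusted p under 0.05), while 3 were higher and 7 lower than in untreated colitis. Over all genes 7.58% were higher and 5.58% lower than in untreated colitis. Postn, the matrix protein periostin, had 11.57, 11.73, 11.79 and 11.67 in cyclosporine colitis, 11.27, 10.82, 11.03 and 11.14 in untreated colitis and 11.11, 11.53, 11.48 and 11.38 in untreated healthy mice (0.63 ± 0.11 above untreated colitis, adjusted p = 0.001). Col4a1, a chain of basement membrane collagen, was lower than in untreated colitis (-0.64 ± 0.13, adjusted p = 0.00291). The count of 7 was 14 without untreated colitis mouse 6 and 3 without untreated colitis mouse 7. Of 13 posterior Hox and related Cdx genes, which pattern the hindgut, 4 were higher than in untreated colitis (7.58% of all genes were), all of them Hoxd genes. Against untreated healthy no Hox gene passed limma's test (3 of the 13 were lower at an unadjusted p under 0.05), and Cdx1, an intestinal homeobox factor, fell by 0.37 on the log2 scale (adjusted p = 0.0297), a call that did not hold without cyclosporine mouse 4, 7 or 10 or untreated healthy mouse 2 or 7. Hoxd11 had 8.92, 8.99, 9.0 and 8.97 in cyclosporine colitis, 7.20, 8.63, 7.12 and 7.68 in untreated colitis and 9.19, 8.94, 9.18 and 9.07 in untreated healthy mice (1.31 ± 0.27, adjusted p = 0.00363). The Hox count was 2 without untreated colitis mouse 5 or 7 or cyclosporine mouse 7. Of 23 goblet cell genes 2 were higher and 6 lower than in untreated colitis, where 7.58% and 5.58% of all genes were. Among the lower was Galnt12, a mucin glycosyltransferase, by 0.64 on the log2 scale (adjusted p = 0.00139). The 1 goblet cell gene that rose over untreated healthy was Sytl2, a protein of vesicle transport (0.49 ± 0.14, adjusted p = 0.0497), and it did not pass without cyclosporine mouse 4, 7 or 9 or untreated healthy mouse 2, 6 or 7 (adjusted p 0.071 to 0.139). Of 20 enteric neuron and glia genes none passed against untreated healthy with limma (1 higher and 3 lower at an unadjusted p under 0.05). Against untreated colitis 2 were higher and 2 lower, where 7.58% and 5.58% of all genes were. Snap25, a protein of synaptic vesicle release, was 1 of the 2 higher (1.04 ± 0.13, adjusted p = 0.000103). None of 14 adipocyte genes passed limma's test against untreated healthy, nor at an unadjusted p under 0.05, and the 2 that were higher than in untreated colitis became 10 without cyclosporine mouse 9, which was at 6.88 on the mean of this list, against 7.86 to 8.06 in the other 3.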

How the data were processed

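Total RNA from the middle part of the colon of 20 mice was measured on Affymetrix arrays, 1 per mouse and 4 per group. The deposited log2 values had been normalized by the authors with RMA, per the submitters' processing notes; its version and annotation are not stated there. Of 41801 probe sets 29195 had values, and 22360 had 1 gene symbol, 1013 several and 5822 none; 12606 listed probe sets had no value here. Probe sets were kept when above 5.30, the 25th percentile, on at least 4 arrays, and each gene was read from its probe set of highest mean level. This left 16739 of 21423 genes. limma 3.58.1 in R 4.3.3 was fitted to all 20 arrays with 5 group means, the 2 probiotic groups included for the shared spread. It used eBayes and Benjamini-Hochberg adjustment at 0.05 over all genes. The fit was also run on simulated data in which each gene had the same spread in all groups. That run could not test the fit where the spread differs between groups. The number of arrays limits the precision, and p-values measure the spread between mice; the cage of each mouse was not among the labels. Genes were named by fixed rules: the largest changes in each direction among calls whose groups did not overlap, the leading calls of each list, and the largest differences from untreated colitis; predicted genes, small noncoding series and antigen receptor segments were counted but not named. The members and lists were chosen with earlier results of these data known. Alternatives were the filter, normalization, probe set rule, fit, weights, replicate block and each array left out; leaving out both arrays that stood apart was chosen after seeing the data. Promoter sequences come from RefSeq (GRCm38.p6).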

Additional observations from a re-analysis of the deposited data

Results flagged for a closer look

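Of 447 sets of 4 mice checked (a named gene or a list mean in 1 group), 24 held a mouse whose gap to the others was large by Dixon's criterion, which chance meets in about 1 in 20. In cyclosporine colitis, mouse 9 was low for Lilrb4a (9.36, the others 9.85 to 9.93), Serpina3n (9.29, the others 9.87 to 9.95), Adipoq (5.41, the others 6.78 to 6.90) and the macrophage mean (7.72, the others 8.05 to 8.09). Cyclosporine mouse 4 was low for Naaladl1 (7.21, the others 7.32 to 7.33) and the enteric neuron and glia mean (6.54, the others 6.90 to 6.93) and high for the natural killer and cytotoxic mean (6.37, the others 6.11 to 6.13). Cyclosporine mouse 10 was high for the chemokine Cxcl5 (7.71, the others 6.23 to 6.45) and low for the surface colonocyte mean (10.11, the others 10.26 to 10.27) and the stem cell and Wnt mean (7.76, the others 7.80 to 7.81).

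In untreated colitis, mouse 6 was low for H2-Ab1 (10.92, the others 11.77 to 11.89) and the natural killer and cytotoxic mean (6.03, the others 6.55 to 6.61). Untreated colitis mouse 5 was low for Gstt1 (7.55, the others 7.73 to 7.74), Cdx1 (8.71, the others 9.06 to 9.08) and Sytl2 (9.61, the others 10.33 to 10.36), and mouse 7 for Slc37a2 (7.42, the others 8.37 to 8.55).

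In untreated healthy mice, mouse 2 was high for Clca4b (8.60, the others 4.61 to 5.05), Spink4 (11.35, the others 10.65 to 10.74), Retnlb (5.65, the others at 5.34) and the ion and water transport mean (10.01, the others 9.72 to 9.73). The same mouse was low for Gbp7 (7.29, the others 8.18 to 8.25), Ptprb (7.29, the others 7.73 to 7.81) and Psmb8 (8.03, the others 8.30 to 8.35). Untreated healthy mouse 4 was low for Slc6a4 (8.87, the others 9.11 to 9.16).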

How the results depend on the processing

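No named gene changed the sign of a called difference under any alternative run. Against untreated healthy, the replicate block left 15 rises and 10 falls, a fit to the compared groups alone gave 232 falls, and leaving out untreated healthy mouse 2 and untreated colitis mouse 6 together, an alternative chosen after seeing the data, gave 288 rises and 288 falls. Against untreated colitis, the block gave 615 lower genes, and the compared groups alone 724 higher and 395 lower. The labels do not say whether mice with the same number in different groups belong together. Same-numbered deviations correlated at -0.185 to 0.121 between the compared groups, and differently numbered ones at -0.265 to 0.334. The same-numbered pairs are too few to settle the question. Without single replicates the rises over untreated healthy ran from 172 to 471 and the falls from 199 to 579, and against untreated colitis 843 to 1342 genes were higher and 510 to 1105 lower. The other fits kept each of these 4 counts within 1.5 times: no filter, the 50th percentile filter, quantile normalization, median centring, a trended robust fit, array weights and the mean of probe sets. The cause of these moves was not tested; the fit to the compared groups alone has fewer arrays.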
